A study of Mus musculus with 9 samples.

Results

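The genes described here are 35 enzymes, transporters and regulators of glycolysis, glycogen storage and the pentose phosphate pathway, taken by gene symbol from the 24532 genes of a mouse neutrophil RNA-seq table. They were followed in neutrophils isolated with a cell sorter from the lung, the blood and the bone marrow of wild-type C57BL/6 mice, with 3 libraries per tissue and 9 in all. The labels call the replicates biological and name no agent or transgene in any group. They do not say whether a library came from 1 mouse or from pooled mice, nor give age, sex or sort markers. All 35 genes passed the filter on low counts. Bone marrow is where neutrophils mature, blood carries them, and the lung holds a large resident pool, so the tissues were compared as blood against bone marrow, lung against blood, and lung against bone marrow.

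Neutrophils have few mitochondria and draw most of their energy from glycolysis, which splits glucose into pyruvate and ends in lactate. They also build glycogen, a glucose store that lets them work where glucose is scarce. The pentose phosphate pathway branches off at glucose 6-phosphate and supplies NADPH, which feeds the oxidase that makes the respiratory burst, and ribose for nucleotides.

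Each library held between 42045548 and 56796219 estimated reads, and between 11642 and 14584 genes had at least 10 reads. Levels are given as CPM, reads of a gene relative to the library total after trimmed-mean (TMM) scaling. Levels of different genes are compared as FPKM, which divides by transcript length and was used as the authors gave it, without TMM scaling. A gene is called higher or lower when the adjusted p of edgeR's quasi-likelihood test was under 0.05 after Benjamini-Hochberg adjustment over 13510 genes, and log2 fold changes are given with their SE. The summed level of 18 neutrophil genes was 22100 to 40800 CPM in lung, 31900 to 45800 CPM in blood and 107000 to 153000 CPM in bone marrow libraries. Transcripts of other cells were present at lower levels and were uneven within a tissue. The summed level of 12 fibroblast and smooth muscle genes was 1870, 1600 and 203 CPM in lung replicates 1, 2 and 3, against 114 to 221 CPM in blood and 192 to 322 CPM in bone marrow. The sum of 11 erythroid genes was 33.3 to 432 CPM in lung, 822 to 8810 CPM in blood and 1720 to 9430 CPM in bone marrow, and no gene of either list was at 0 in all libraries. The erythroid sum and those of 10 B cell and 12 T and NK cell genes were lowest in replicate 3 of each tissue. The B cell sum was 543, 487 and 64.3 CPM in lung, 507, 505 and 91.2 CPM in blood, and 139, 84.3 and 47.1 CPM in bone marrow. In bone marrow, fibroblast and smooth muscle genes and 12 lung epithelium genes were instead highest in replicate 3. The reason was not tested. The part of these other transcripts in the results was not tested, and in bulk RNA fewer cells of a type and less RNA per cell cannot be told apart.

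Most of these transcripts were lower in lung and in blood than in bone marrow. In lung against bone marrow, 24 of the 35 genes were lower and 1 was higher, against a background of 22.6% of all genes called lower and 15.6% called higher (38.2% in all). The median log2 fold change of the 35 genes was -1.29, beside 0.06 over all genes tested. In blood against bone marrow, 20 were called and all 20 were lower, where 13.1% of all genes were called lower and 8.34% higher (21.4% in all), and the median was -1.03 beside -0.05. In lung against blood, 6 were lower and 2 were higher, where 15.7% of all genes were called lower and 13.2% higher (28.9% in all), and the median was -0.17 beside 0.05. The share of the 35 genes called in this last comparison was thus near the background. The comparisons share libraries and are not independent of one another.

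The replicate ranges showed the same order. The 3 lung values and the 3 bone marrow values did not overlap for 74.3% of the 35 genes, against 49.0% of all genes, and the same 74.3% held for blood and bone marrow, against 45.4% of all genes. Between lung and blood, 28.6% did not overlap, against 41.6% of all genes. In lung against bone marrow, leaving out single libraries gave 23 to 28 called genes. In blood against bone marrow the count moved most without single blood libraries or bone marrow replicate 3, with 8 genes called without blood replicate 1, 7 without blood replicate 2 and 13 without bone marrow replicate 3. The 7 that kept their call there under every alternative tried were Hk1, Pgk1, Pgam1, Gyg, Gys1, Gbe1 and Tkt, and the other 13 all lost it without blood replicate 2. In lung against blood, 4, 4 and 2 genes were called without blood replicates 1, 2 and 3. Without lung replicate 1 or 2, or without any 1 bone marrow library, 5 were called, and without lung replicate 3, 14 were. Hk2 and Pfkp kept their call there under every alternative tried.

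**Figure D1:**
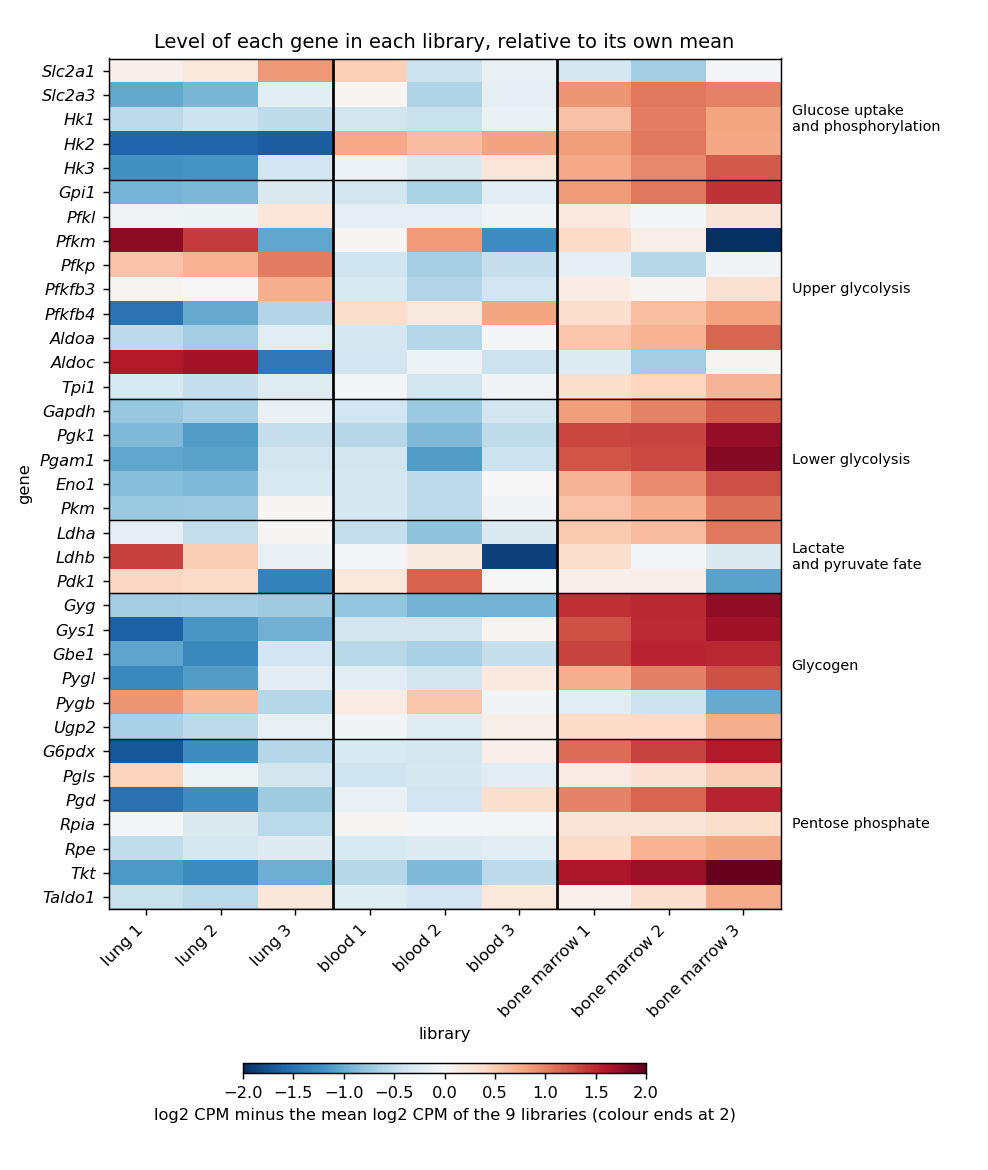
Level of each of the 35 genes in each library, as log2 CPM minus the mean of that gene over the 9 libraries, with lung left, blood in the middle and bone marrow right. Red marks libraries above the gene's own mean and blue those below. Most rows are red in the 3 bone marrow columns, while Pfkp is red in the 3 lung columns.

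**Figure D2:**
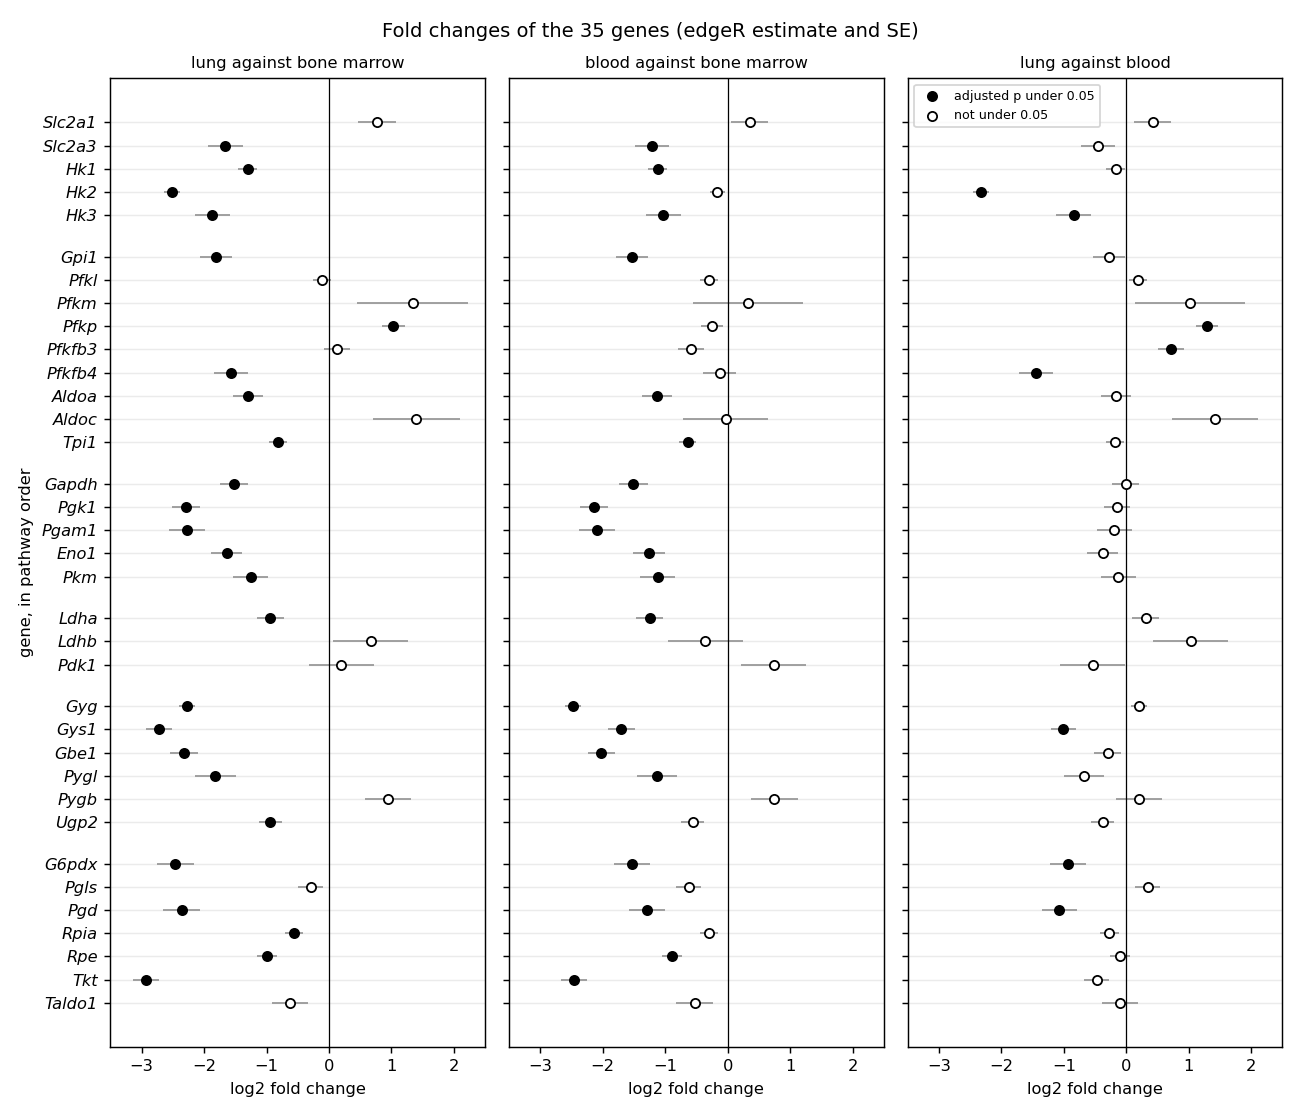
Log2 fold change of each gene with its SE in lung against bone marrow, blood against bone marrow and lung against blood. Filled points have an adjusted p under 0.05: 24 lower and 1 higher in the left panel, 20 lower in the middle panel, and 6 lower and 2 higher in the right panel.

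Glucose enters neutrophils through facilitative transporters and is trapped inside by hexokinases. Of these 5 genes, 4 were lower in lung than in bone marrow, 3 were lower in blood than in bone marrow, and 2 were lower in lung than in blood. Slc2a3, which encodes the high-affinity transporter GLUT3, had 663, 720 and 1155 CPM in lung, 1386, 892 and 1193 CPM in blood, and 2503, 2817 and 2684 CPM in bone marrow. Every bone marrow library stood above every other library, and the lung and blood ranges overlapped in CPM. In FPKM, which lacks TMM scaling, the lung values (192, 201 and 223) all lay below the blood values (366, 272 and 304.5). Lung against blood did not pass (-0.45 ± 0.27, adjusted p = 0.25, up to 0.629 over the alternatives). Slc2a3 was called lower there by limma on log2(FPKM + 0.1) (-0.61, adjusted p = 0.00832) and without lung replicate 3 (-0.78, 0.0244). Its log2 fold change was -1.66 ± 0.28 (adjusted p = 0.00169) in lung against bone marrow and -1.21 ± 0.27 (adjusted p = 0.0138) in blood against bone marrow. Slc2a1, which encodes the widely expressed transporter GLUT1, had 231, 248 and 392 CPM in lung, 298, 159.8 and 195 CPM in blood, and 169, 133 and 209 CPM in bone marrow. Its lung values all lay above its bone marrow values, the opposite order to Slc2a3, but the log2 fold change of 0.77 ± 0.30 (adjusted p = 0.0707) did not pass. Its adjusted p ran from 0.00448 to 0.249 over the alternatives and was under 0.05 with DESeq2 (0.0222), upper-quartile scaling (0.0128), the filter at 1 CPM (0.0434), limma on FPKM and the replicate block (0.77, 0.0366).

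The makeup of the transporter pair differed by tissue. Of the summed FPKM of both genes, Slc2a1 made up 34.9%, 34.6% and 34.3% in lung, 24.9%, 21.6% and 20.1% in blood, and 9.42%, 6.78% and 10.7% in bone marrow. The 3 tissues did not overlap, with means of 34.6% ± 0.328, 22.2% ± 2.45 and 8.97% ± 1.998 (SD, n = 3 each) in lung, blood and bone marrow. A share within a library does not depend on how libraries are scaled. With 3 libraries against 3, the exact two-sided permutation test cannot give less than p = 0.10, which each of these comparisons gave (adjusted p = 0.12 over 18 such tests).

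Of the hexokinases, Hk2 and Hk3 were lower in lung than in blood. Hk2 (chromosome 6, 82725027 to 82774454), which encodes the inducible hexokinase that docks on mitochondria, had 21.3, 21.1 and 20.2 CPM in lung, 107, 97.3 and 111 CPM in blood, and 113, 132 and 109 CPM in bone marrow. Lung stood far below both other tissues, and blood and bone marrow overlapped. It fell by 2.33 ± 0.13 (adjusted p = 0.000129) in lung against blood and by 2.51 ± 0.13 (adjusted p = 9.13e-06) in lung against bone marrow, and blood against bone marrow did not pass under any alternative. Of the genes here, Hk2 had the largest fold between lung and blood. Its lung values spanned only 20.2 to 21.3 CPM, but in FPKM, without TMM scaling, they were 4.43, 4.22 and 2.80.

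Hk1, which encodes the housekeeping hexokinase, had 54.6, 58.7 and 55.4 CPM in lung, 60.9, 57.7 and 71.5 CPM in blood, and 118, 159 and 136 CPM in bone marrow. Bone marrow was above both other tissues, which overlapped, with -1.30 ± 0.15 (adjusted p = 0.000246) in lung against bone marrow and -1.12 ± 0.15 (adjusted p = 0.00107) in blood against bone marrow. Hk3, which encodes a hexokinase typical of myeloid cells, had 264, 268 and 472 CPM in lung, 568, 503 and 725 CPM in blood, and 1043, 1198 and 1439 CPM in bone marrow. Here the 3 tissues formed a step series without overlap, from lung through blood to bone marrow. The steps were -1.87 ± 0.28 (adjusted p = 0.00105) in lung against bone marrow, -1.03 ± 0.28 (adjusted p = 0.0289) in blood against bone marrow and -0.84 ± 0.28 (adjusted p = 0.0499) in lung against blood. Blood against bone marrow lost its call under 9 of 19 alternatives, those without any 1 blood or bone marrow library among them, with adjusted p from 0.00324 to 0.264, highest without blood replicate 2. Lung against blood lost it under 14 of 20, DESeq2 among them, with adjusted p from 0.000368 to 0.311, highest without blood replicate 3. For Slc2a3 in blood against bone marrow the adjusted p ran from 0.00129 to 0.175, highest without blood replicate 2.

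Hk3 was the main hexokinase transcript in each tissue, at 84.95% ± 4.06 of the family's summed FPKM in lung, 84.4% ± 1.33 in blood and 87.4% ± 1.94 in bone marrow (SD, n = 3 each). The Hk2 share was 3.88%, 3.76% and 2.24% in lung, 9.19%, 9.34% and 7.61% in blood, and 5.49%, 5.51% and 3.96% in bone marrow. Blood held the highest Hk2 share and lung the lowest, without overlap. Reads that the authors' table assigned to the inner of the Hk3 transcript starts (chromosome 13, position 55020819), a small part of the gene's reads, made up 1.4% ± 0.227 of them in lung, 7.06% ± 0.896 in blood and 3.71% ± 1.39 in bone marrow. In a fit over 12135 gene and start pairs, of which 20.4% were called in lung against blood, reads from this start were lower in lung than in blood (-3.13 ± 0.31, adjusted p = 0.0012).

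**Figure D3:**
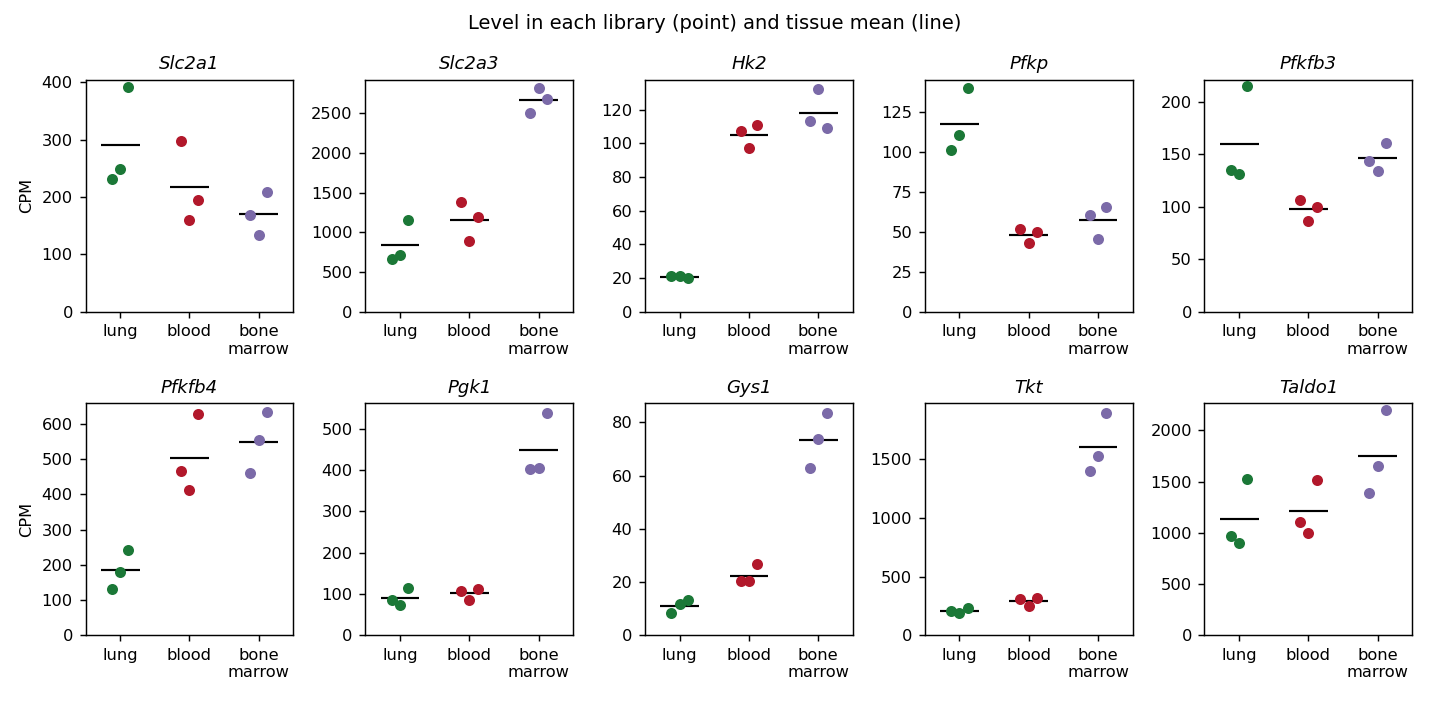
CPM of 10 genes in each library (points) with the tissue mean (line), lung left, blood in the middle and bone marrow right, each panel on its own axis from 0. Hk2 and Pfkfb4 are lowest in lung, Pfkp is highest in lung, Pgk1, Gys1 and Tkt are highest in bone marrow, and Taldo1 overlaps between the tissues.

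Upper glycolysis turns glucose 6-phosphate into triose phosphates and holds the committed step, phosphofructokinase. Of its 9 genes, 4 were lower and 1 was higher in lung than in bone marrow, 3 were lower in blood than in bone marrow, and 1 was lower and 2 were higher in lung than in blood. Gpi1, which encodes glucose 6-phosphate isomerase, had 484, 496 and 758 CPM in lung, 712, 598 and 795 CPM in blood, and 1658, 1908 and 2510 CPM in bone marrow. Bone marrow lay above both other tissues, at -1.81 ± 0.26 (adjusted p = 0.000849) for lung and -1.53 ± 0.26 (adjusted p = 0.00411) for blood against it. Lung against blood did not pass (-0.28 ± 0.26, adjusted p = 0.469). It was called lower by limma on log2(FPKM + 0.1) (-0.43, adjusted p = 0.0152, the lowest of a range up to 0.867). Aldoa, which encodes the main aldolase, had 457, 407 and 568 CPM in lung, 520.3, 443 and 639 CPM in blood, and 959.9, 1062 and 1485 CPM in bone marrow. Its bone marrow libraries were again the highest, with -1.29 ± 0.24 (adjusted p = 0.00337) in lung and -1.13 ± 0.24 (adjusted p = 0.0113) in blood against bone marrow. Tpi1, which encodes triose phosphate isomerase, had 47.7, 42.9 and 50.1 CPM in lung, 57.4, 45.9 and 56.4 CPM in blood, and 75.5, 79.6 and 94 CPM in bone marrow. Bone marrow was again highest without overlap, and the gene fell by 0.82 ± 0.14 (adjusted p = 0.0021) in lung and by 0.64 ± 0.14 (adjusted p = 0.0128) in blood against bone marrow. In blood against bone marrow these 3 calls were lost without blood replicate 2, at adjusted p values of 0.0724 for Gpi1, 0.152 for Aldoa and 0.241 for Tpi1, the highest of ranges beginning at 1.01e-05, 0.000958 and 0.00506. All 3 were also lost without blood replicate 1, and those of Aldoa and Tpi1 without blood replicate 3 or bone marrow replicate 3.

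Among the phosphofructokinase genes, Pfkp was higher in lung. Pfkp (chromosome 13, 6579874 to 6648771), which encodes the platelet-type subunit, had 101, 111 and 140.4 CPM in lung, 51.6, 43 and 49.7 CPM in blood, and 60.4, 45.7 and 65.6 CPM in bone marrow. All lung libraries lay above all others, and blood and bone marrow overlapped. It was higher in lung by 1.29 ± 0.18 (adjusted p = 0.00155) against blood and by 1.03 ± 0.18 (adjusted p = 0.00229) against bone marrow. Pfkl, which encodes the liver-type subunit, had 35.7, 34.8 and 44.3 CPM in lung, 32.6, 32.6 and 35.7 CPM in blood, and 42.9, 36.4 and 44.8 CPM in bone marrow, and Pfkm, the muscle-type gene, had 3.52, 2.67 and 0.497 CPM in lung, 1.05, 1.83 and 0.430 CPM in blood, and 1.31, 1.12 and 0.205 CPM in bone marrow. Neither passed in the fit without a block, and Pfkm was near 1 CPM in most libraries. Pfkm was higher in lung than in bone marrow with the replicate block (1.32, adjusted p = 0.0422, the lowest of a range up to 0.562). Pfkl passed in lung against blood with upper-quartile scaling (0.34, adjusted p = 0.0444, the lowest of a range up to 0.842). Pfkp made up 69.8%, 72.7% and 74.2% of the family's summed FPKM in lung, 58.4%, 53.2% and 55.8% in blood, and 55.5%, 52.7% and 57.3% in bone marrow. The lung shares were above all others, while those of blood and bone marrow overlapped. Reads over Pfkp were counted differently in the 2 deposited quantifications of lung and blood: the table used here held 0.853 to 1.19 times the RSEM count, against about 2 times for most of the 35 genes. In RSEM TPM, another unit per length, the Pfkp share was 84.2%, 81.3% and 85.6% in lung and 69.3%, 63.7% and 62.7% in blood, and lung was above blood on both.

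Fructose 2,6-bisphosphate, the strongest activator of phosphofructokinase, is made and removed by the bifunctional PFKFB enzymes. Pfkfb4 was lower and Pfkfb3 was higher in lung than in blood. Pfkfb4 (chromosome 9, 108991902 to 109032225) had 132, 180.3 and 243 CPM in lung, 467, 414 and 628 CPM in blood, and 459.9, 555 and 633 CPM in bone marrow. Lung was below both other tissues without overlap, and blood and bone marrow overlapped. It fell by 1.44 ± 0.27 (adjusted p = 0.00494) in lung against blood and by 1.57 ± 0.27 (adjusted p = 0.00201) in lung against bone marrow. The call against blood was lost without blood replicate 3, where the adjusted p was 0.0528, the highest of a range beginning at 8.32e-05. Pfkfb3 (chromosome 2, 11471431 to 11553929), which encodes the form with the highest kinase activity, had 135, 131 and 215 CPM in lung, 106, 86.7 and 99.4 CPM in blood, and 144, 134 and 161 CPM in bone marrow. Lung lay above blood without overlap and overlapped bone marrow. It was higher in lung than in blood (0.72 ± 0.21, adjusted p = 0.0303), a call with adjusted p between 0.00276 and 0.194 over the alternatives, lost without any 1 blood or bone marrow library. Of the summed FPKM of both genes, Pfkfb3 took 40.9%, 33.3% and 37.7% in lung, 13.4%, 12.7% and 9.89% in blood, and 18.1%, 14.7% and 15.2% in bone marrow. Lung shares were above both other tissues, and blood was below bone marrow, without overlap (exact two-sided permutation p = 0.10 each, the smallest possible).

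**Figure D4:**
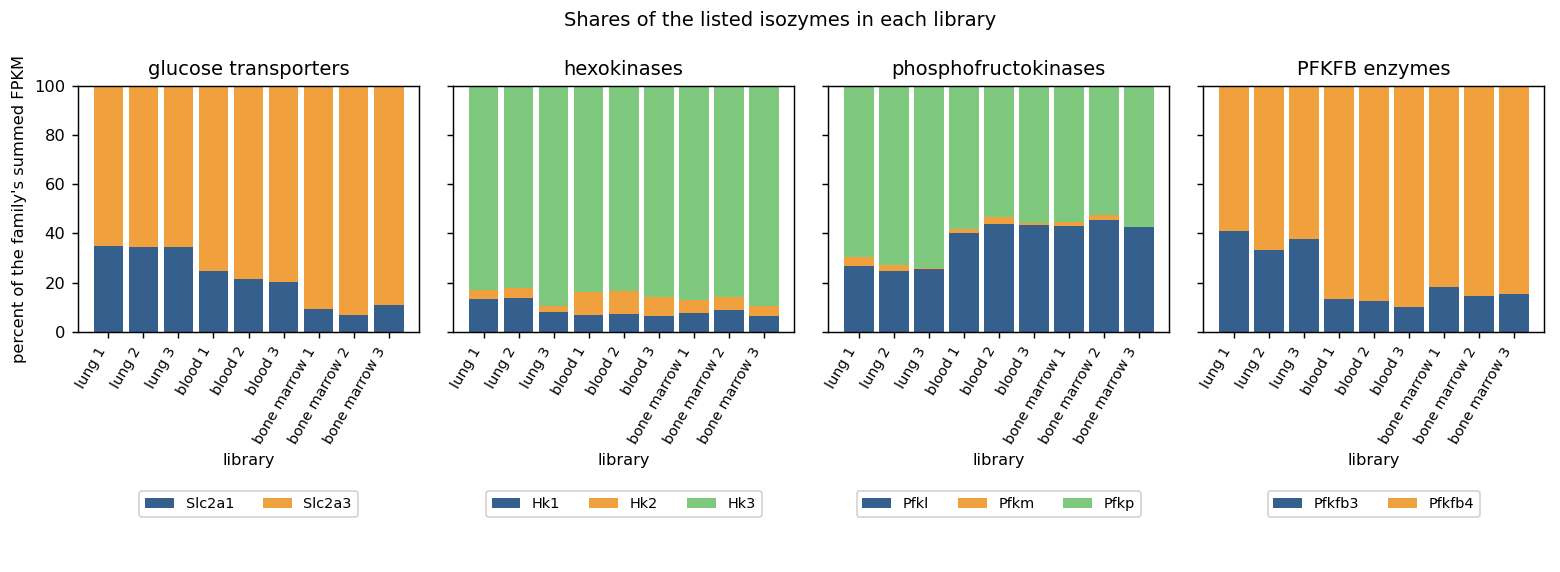
Share of each isozyme in the summed FPKM of its listed family, for glucose transporters, hexokinases, phosphofructokinases and PFKFB enzymes, with 1 bar per library and lung left, blood in the middle and bone marrow right. Lung has the largest shares of Slc2a1 (34.6% mean), Pfkp (72.2%) and Pfkfb3 (37.3%), and Hk3 leads the hexokinases in every library.

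Pfkfb3 has a pair of transcript starts in the table, 51839 bases apart on the minus strand of chromosome 2. The inner one lies at position 11502090 and carries 7 listed transcripts, and the outer one lies at position 11553929 and carries 1. The 250 bases before each start are shown because the reads divided differently between them by tissue. The sequences run 5′ to 3′ on the minus strand of GRCm38 (mm10), from RefSeq, and capitals mark matches to the letters ACGTG or GCGTG on either strand.
Pfkfb3 inner start, chr2:11502091-11502340: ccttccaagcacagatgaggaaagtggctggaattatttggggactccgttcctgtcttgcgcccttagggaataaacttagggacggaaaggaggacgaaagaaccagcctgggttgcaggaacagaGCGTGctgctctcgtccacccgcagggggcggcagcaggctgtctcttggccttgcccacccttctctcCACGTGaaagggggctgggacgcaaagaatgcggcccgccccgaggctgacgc
Pfkfb3 outer start, chr2:11553930-11554179: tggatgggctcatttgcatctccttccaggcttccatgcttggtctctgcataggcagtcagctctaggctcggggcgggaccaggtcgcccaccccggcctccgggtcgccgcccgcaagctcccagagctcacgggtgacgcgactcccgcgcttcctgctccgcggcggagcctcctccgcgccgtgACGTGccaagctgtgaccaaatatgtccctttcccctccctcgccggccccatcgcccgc
The window of the inner start held 3 matches, 2 of which are the same CACGTG read on both strands, and that of the outer start held 1.

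In the authors' assignment, the inner start received 82.2%, 59.7% and 62.1% of Pfkfb3 reads in lung, 70.3%, 45.7% and 53.5% in blood, and 28.7%, 26.9% and 34.4% in bone marrow. Lung and blood overlapped, and both lay above bone marrow without overlap, with means of 68.0% ± 12.4, 56.5% ± 12.6 and 30.0% ± 3.92 (SD, n = 3 each). Reads from the inner start were higher in lung than in bone marrow (1.45 ± 0.32, adjusted p = 0.0112), where 28.1% of 12135 gene and start pairs were called, and this call held without any 1 library at an adjusted p of 0.00852 to 0.0486. Against blood the difference was 1.01 ± 0.31 (adjusted p = 0.0529), and blood against bone marrow, where 14.9% of pairs were called, gave 0.44 ± 0.31 (adjusted p = 0.399). Reads from the outer start did not pass in any comparison, with -0.78 ± 0.42 in lung against bone marrow (adjusted p = 0.2) and -1.20 ± 0.42 in blood against bone marrow (adjusted p = 0.0958). The outer start passed in both comparisons when lung replicate 3 was left out, at adjusted p values of 0.0177 in lung and 0.0197 in blood against bone marrow, and in blood also without lung replicate 1 (0.0218). The highest adjusted p without a library was 0.249 in blood, without blood replicate 1, and 0.356 in lung, without lung replicate 1.

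**Figure D5:**
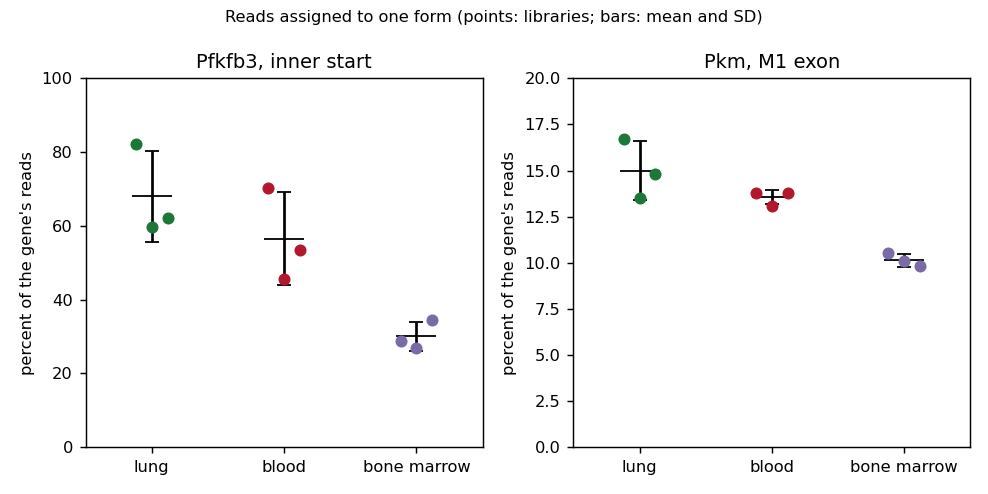
Percent of Pfkfb3 reads assigned to the inner transcript start and percent of Pkm reads assigned to the transcript with the M1 exon, by library (points) with mean and SD, lung left, blood in the middle and bone marrow right. For both genes the lung and blood libraries lie above the 3 bone marrow libraries.

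Lower glycolysis carries triose phosphates to pyruvate and yields the ATP of the pathway. All 5 of its genes were lower in lung than in bone marrow and lower in blood than in bone marrow, and the lung and blood ranges of each overlapped. Pgk1 (chromosome X, 106187100 to 106203699), which encodes phosphoglycerate kinase, had 85.9, 73.5 and 115 CPM in lung, 107, 86.4 and 112 CPM in blood, and 402, 406 and 538 CPM in bone marrow. Lung and blood overlapped far below bone marrow, at -2.29 ± 0.22 (adjusted p = 0.000102) for lung and -2.14 ± 0.22 (adjusted p = 0.00028) for blood. Pgam1 (chromosome 19, 41911871 to 41918665), which encodes phosphoglycerate mutase, had 68.4, 66.9 and 109.5 CPM in lung, 109.7, 64.7 and 105 CPM in blood, and 337, 350.2 and 498 CPM in bone marrow. It showed the same pattern, with -2.27 ± 0.29 (adjusted p = 0.000432) in lung and -2.09 ± 0.29 (adjusted p = 0.00139) in blood against bone marrow. Gapdh, which encodes glyceraldehyde 3-phosphate dehydrogenase and is often used as a reference gene, had 319.7, 343 and 486 CPM in lung, 416, 324 and 417 CPM in blood, and 963, 1069 and 1263 CPM in bone marrow. Its lung and blood values overlapped, and it was lower than in bone marrow at -1.52 ± 0.23 (adjusted p = 0.000927) in lung and -1.51 ± 0.23 (adjusted p = 0.00201) in blood.

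Eno1, which encodes the enolase of most tissues, had 303, 298 and 441 CPM in lung, 435, 379 and 545 CPM in blood, and 873, 1050 and 1333 CPM in bone marrow. Pkm, which encodes pyruvate kinase, had 1003, 1011 and 1707 CPM in lung, 1318, 1162 and 1592 CPM in blood, and 2489, 2777 and 3602 CPM in bone marrow. For both genes the 3 bone marrow libraries were the highest. Eno1 fell by 1.64 ± 0.25 (adjusted p = 0.00112) in lung and by 1.26 ± 0.25 (adjusted p = 0.00797) in blood against bone marrow, and Pkm fell by 1.25 ± 0.28 (adjusted p = 0.00821) and by 1.12 ± 0.28 (adjusted p = 0.0217) in the same comparisons. The calls of Gapdh, Eno1 and Pkm in blood against bone marrow were lost without blood replicate 2, at adjusted p values of 0.0524, 0.122 and 0.22, each the highest of ranges beginning at 8.83e-07, 0.000394 and 0.0019. Without blood replicate 1 they were lost for Eno1 (0.101) and Pkm (0.184), and for Pkm also without blood replicate 3 or bone marrow replicate 2 or 3 (0.0675 to 0.0999). Pkm in lung against bone marrow was lost without blood replicate 1 (adjusted p = 0.0501, in a range from 0.000155). The summed FPKM of the 5 genes was 1033 ± 42.3 in lung, 1283 ± 93.2 in blood and 2560 ± 214 in bone marrow (SD, n = 3 each), and no library of any tissue fell within the range of another. Lung and blood were thus apart in summed FPKM, which lacks the TMM scaling, but overlapped in CPM for each of these genes. By limma on log2(FPKM + 0.1), Eno1 was called lower in lung than in blood (-0.52, adjusted p = 0.0103, the lowest of a range up to 0.775).

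Gapdh, Pgam1 and Eno1 have near-identical copies elsewhere in the genome that could share reads. The table used here held 0.785 times the RSEM count for Gapdh and 1.45 times for Pgam1 (medians over lung and blood libraries), against about 2 times for most of the 35 genes, so their levels are uncertain. In FPKM Gapdh was below Pkm, at 262 ± 4.19 against 489.6 ± 40.5 in lung and 292 ± 15.6 against 602 ± 52.2 in blood, but in RSEM TPM it was above, at 1273 ± 8.32 against 832 ± 100.3 in lung and 1370 ± 101 against 1101 ± 126 in blood (SD, n = 3 each). Eno1b, a copy of Eno1, stood at 15.4 CPM in blood replicate 1 and at 34.2 and 51.8 CPM in bone marrow replicates 1 and 3, but at no more than 0.124 CPM in the other 6 libraries. Its reads cannot be told apart from those of Eno1 with certainty.

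Pkm makes pyruvate kinase M1 or M2 by choosing 1 of 2 neighbouring exons. The exons are shown because the share of reads between them differed by tissue. Each is exon 9 of its transcript, 167 coding bases long on the plus strand of chromosome 9 in GRCm38 (mm10), with sequence from the GENCODE transcripts, and capitals mark the 64 positions at which they differ (61.7% identical).
Pkm M1 exon, chr9:59675029-59675195: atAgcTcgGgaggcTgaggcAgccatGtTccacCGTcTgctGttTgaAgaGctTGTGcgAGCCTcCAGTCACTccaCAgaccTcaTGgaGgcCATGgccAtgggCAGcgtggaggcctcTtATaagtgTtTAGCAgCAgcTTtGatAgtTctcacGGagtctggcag
Pkm M2 exon, chr9:59675568-59675734: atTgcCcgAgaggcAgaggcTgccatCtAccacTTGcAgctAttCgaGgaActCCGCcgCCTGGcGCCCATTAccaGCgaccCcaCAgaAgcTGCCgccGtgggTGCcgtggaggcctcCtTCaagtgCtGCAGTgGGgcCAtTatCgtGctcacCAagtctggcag
The transcript with the M1 exon received 16.7%, 13.5% and 14.8% of Pkm reads in lung, 13.8%, 13.1% and 13.8% in blood, and 10.5%, 10.1% and 9.8% in bone marrow. The M2 form was the main one in every library. The M1 share was above bone marrow in all lung and blood libraries, and lung and blood overlapped. Its means were 15.0% ± 1.61 in lung, 13.6% ± 0.404 in blood and 10.1% ± 0.351 in bone marrow (SD, n = 3 each; exact two-sided permutation p = 0.10, the smallest possible, for each tissue against bone marrow). M1 is the form of muscle and brain. Beside these shares, the sum of fibroblast and smooth muscle transcripts was 1870, 1600 and 203 CPM in lung replicates 1, 2 and 3, 114 to 221 CPM in blood and 192 to 322 CPM in bone marrow, and its part in the M1 share was not tested.

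Pyruvate is reduced to lactate by lactate dehydrogenase or passed to mitochondria. Of these 3 genes, 1 was lower in lung than in bone marrow, 1 was lower in blood than in bone marrow, and the lung and blood ranges of each overlapped. Ldha, which encodes the subunit that favours lactate formation, had 272, 222 and 314 CPM in lung, 221, 177 and 252 CPM in blood, and 443, 469.5 and 637 CPM in bone marrow. Bone marrow was highest without overlap, with -0.94 ± 0.22 (adjusted p = 0.00999) in lung and -1.25 ± 0.22 (adjusted p = 0.00481) in blood against it. The lung call was lost without blood replicate 1 (adjusted p = 0.06, in a range from 0.00111) and the blood call without blood replicate 1 or 2 (up to 0.0842, in a range from 7.86e-05). Ldhb, which encodes the subunit typical of heart, had 4.27, 2.33 and 1.49 CPM in lung, 1.61, 1.88 and 0.453 CPM in blood, and 2.12, 1.61 and 1.36 CPM in bone marrow. It stayed near 1 to 2 CPM in most libraries and did not pass. Ldha made up 98.7% ± 0.676, 99.2% ± 0.547 and 99.6% ± 0.161 of the pair's FPKM in lung, blood and bone marrow (SD, n = 3 each). Pdk1, a kinase that switches off pyruvate dehydrogenase, had between 3.08 and 17.8 CPM over all libraries and did not pass.

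Glycogen is started on glycogenin, extended by glycogen synthase, branched by the branching enzyme and broken down by glycogen phosphorylase. Of these 6 genes, 5 were lower in lung than in bone marrow, 4 were lower in blood than in bone marrow, and 1 was lower in lung than in blood. The synthesis genes fell furthest. Gyg (chromosome 3, 20122084 to 20155116), which encodes glycogenin, had 27.8, 28.2 and 27.3 CPM in lung, 26.3, 23.2 and 23.2 CPM in blood, and 123, 127 and 154 CPM in bone marrow. Lung and blood both lay well below bone marrow, at -2.27 ± 0.13 (adjusted p = 1.21e-05) and -2.47 ± 0.13 (adjusted p = 2.09e-05). Gbe1 (chromosome 16, 70313949 to 70569720), which encodes the branching enzyme, had 10.9, 9.19 and 17.3 CPM in lung, 15.3, 14.3 and 16.3 CPM in blood, and 57.3, 64.8 and 64.2 CPM in bone marrow. It followed the same pattern, with -2.32 ± 0.22 (adjusted p = 0.000101) in lung and -2.02 ± 0.22 (adjusted p = 0.000387) in blood against bone marrow. For Gbe1, lung against blood did not pass (-0.30 ± 0.22, adjusted p = 0.344, up to 0.74 over the alternatives). It was called lower by limma on log2(FPKM + 0.1) (-0.47, adjusted p = 0.0371) and without lung replicate 3 (-0.64, 0.00786).

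Gys1 (chromosome 7, 45434839 to 45456617), which encodes the glycogen synthase found outside the liver, had 8.41, 11.7 and 13.3 CPM in lung, 20.3, 20.3 and 26.8 CPM in blood, and 62.8, 73.6 and 83.3 CPM in bone marrow. Its 3 tissues did not overlap, and it was lower at each step: -2.72 ± 0.21 (adjusted p = 3.93e-05) in lung against bone marrow, -1.70 ± 0.21 (adjusted p = 0.000627) in blood against bone marrow and -1.01 ± 0.20 (adjusted p = 0.00673) in lung against blood. The last call was lost without blood replicate 3 (adjusted p = 0.0691, in a range from 0.000943). Ugp2, which encodes the enzyme that makes UDP-glucose for the synthase, had 55.2, 60.03 and 77.9 CPM in lung, 83.3, 73.5 and 94.2 CPM in blood, and 112, 114 and 144 CPM in bone marrow. Bone marrow was highest without overlap. Ugp2 fell by 0.94 ± 0.18 (adjusted p = 0.00359) in lung against bone marrow, while blood against bone marrow missed the threshold (-0.56 ± 0.18, adjusted p = 0.0536), with adjusted p from 0.008 to 0.47 over the alternatives. With the replicate block, Ugp2 was lower in blood than in bone marrow (-0.55, adjusted p = 0.008). It was then also lower in lung than in blood (-0.39, adjusted p = 0.0275, in a range from 0.00258 to 0.595).

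Pygl, which encodes the phosphorylase of liver and leukocytes, had 507, 570 and 1063 CPM in lung, 1057, 959 and 1423 CPM in blood, and 2055, 2477 and 3003 CPM in bone marrow. Bone marrow was highest, with -1.82 ± 0.33 (adjusted p = 0.00274) in lung and -1.13 ± 0.32 (adjusted p = 0.0364) in blood against it, and the blood call was lost under 10 of 19 alternatives (adjusted p up to 0.274 without blood replicate 2, in a range from 0.00382). With the replicate block, Pygl was also lower in lung than in blood (-0.74, adjusted p = 0.0179, in a range from 0.0029 to 0.561). Pygb, the brain-type gene, had 16.4, 13.9 and 6.03 CPM in lung, 10.03, 13.1 and 8.63 CPM in blood, and 7.70, 6.68 and 4.45 CPM in bone marrow. It was the 1 glycogen gene whose blood libraries all lay above bone marrow, but it did not pass in any comparison in the fit without a block. In lung against bone marrow the log2 fold change was 0.95 ± 0.37 (adjusted p = 0.0716), with adjusted p from 0.00605 to 0.236 over the alternatives, and it was under 0.05 with DESeq2 (0.0144), without lung replicate 3 (0.00605) and with the replicate block (0.89, 0.021), among others. Blood against bone marrow gave 0.75 ± 0.37 (adjusted p = 0.185), with adjusted p from 0.0378 to 0.448 and 0.0446 with the replicate block. Pygl made up 98.5% ± 0.982, 99.3% ± 0.274 and 99.8% ± 0.0827 of the pair's FPKM in lung, blood and bone marrow (SD, n = 3 each). The summed FPKM of the 6 genes was 289 ± 36.6 in lung, 501.5 ± 64 in blood and 885 ± 76.3 in bone marrow (SD, n = 3 each), and no library of any tissue fell within the range of another. Pygl alone averaged 239 ± 42.8, 437 ± 63.5 and 745 ± 74.05 FPKM in the same order, so the sum mostly follows this gene. Of the 6 genes, only Gys1 was called in lung against blood, and the lung and blood CPM of Pygl overlapped.

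The pentose phosphate pathway has an oxidative arm that makes NADPH and a non-oxidative arm that rearranges sugars. Of its 7 genes, 5 were lower in lung than in bone marrow, 4 were lower in blood than in bone marrow, and 2 were lower in lung than in blood. In the oxidative arm, G6pdx (chromosome X, 74409486 to 74429161), which encodes glucose 6-phosphate dehydrogenase, had 78.9, 107 and 171 CPM in lung, 205, 199 and 274 CPM in blood, and 549, 652 and 766 CPM in bone marrow. Pgd (chromosome 4, 149149985 to 149166707), which encodes 6-phosphogluconate dehydrogenase, had 259, 307 and 449 CPM in lung, 664, 559.5 and 909.5 CPM in blood, and 1452, 1637 and 2111 CPM in bone marrow. Both genes fell into 3 separate levels, lowest in lung and highest in bone marrow. In lung against bone marrow they fell by 2.46 ± 0.30 (adjusted p = 0.000344) and by 2.36 ± 0.30 (adjusted p = 0.000375). In blood against bone marrow the differences were -1.53 ± 0.29 (adjusted p = 0.00669) and -1.29 ± 0.29 (adjusted p = 0.013), and in lung against blood they were -0.93 ± 0.29 (adjusted p = 0.0406) and -1.07 ± 0.28 (adjusted p = 0.0212). Both calls in blood against bone marrow were lost without blood replicate 1 or 2, where the log2 fold changes were -1.36 and -1.33 for G6pdx and -1.12 and -1.02 for Pgd. The adjusted p there reached 0.0937 for G6pdx and 0.157 for Pgd without blood replicate 2, in ranges from 0.000227 and 0.00111. In lung against blood, the G6pdx call was lost under 14 of 20 alternatives, DESeq2, other filters and RSEM counts among them, and the Pgd call under 7, and the adjusted p reached 0.262 and 0.174 without blood replicate 3, in ranges from 0.000724 and 0.000293. Pgls, which encodes the lactonase between these enzymes, had 16.4 to 30.2 CPM over all libraries and did not pass. Its log2 fold change in blood against bone marrow was -0.62 ± 0.20 (adjusted p = 0.0587), with adjusted p from 0.0168 to 0.582 and under 0.05 with DESeq2 and without lung replicate 1 or 3. In lung against bone marrow it passed without lung replicate 1 (-0.55, adjusted p = 0.0341, the lowest of a range up to 0.87).

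In the non-oxidative arm, Tkt (chromosome 14, 30549131 to 30574726), which encodes transketolase, had 207, 189.6 and 235 CPM in lung, 308, 249 and 320.1 CPM in blood, and 1405, 1525 and 1892 CPM in bone marrow. Bone marrow was far above both other tissues, and every lung library was below every blood library. It was lower than in bone marrow at -2.93 ± 0.21 (adjusted p = 2.88e-05) in lung, the largest fold among the 35 genes in that comparison, and at -2.46 ± 0.21 (adjusted p = 0.000102) in blood, while lung against blood did not pass (-0.47 ± 0.20, adjusted p = 0.103) though some alternatives called it, the replicate block among them (0.0326, in a range from 0.00462 to 0.433). Taldo1, which encodes transaldolase, the partner of transketolase, had 966, 906 and 1525 CPM in lung, 1109, 1003 and 1520 CPM in blood, and 1388, 1651 and 2198 CPM in bone marrow. Lung and blood overlapped each other and bone marrow, and it did not pass in any comparison in the fit without a block. With the replicate number as a block it was lower than in bone marrow in lung (-0.64, adjusted p = 0.0103) and in blood (-0.53, adjusted p = 0.0315). Its adjusted p ran from 0.0103 to 0.347 and from 0.0315 to 0.733 over the alternatives, and lung against bone marrow also passed without lung replicate 3 (0.0219). In FPKM, Tkt averaged 64.6 ± 9.12 in lung, 97.6 ± 4.07 in blood and 417 ± 24 in bone marrow, and Taldo1 averaged 855 ± 65, 1020 ± 160 and 1141 ± 157 in the same order (SD, n = 3 each). Taldo1 was thus the most abundant of the 35 transcripts per length in lung and blood, and its bone marrow range overlapped that of Pkm. Rpe, which encodes ribulose phosphate epimerase, had 8.08, 8.99 and 9.49 CPM in lung, 9.22, 9.47 and 9.79 CPM in blood, and 14.7, 18.5 and 19.7 CPM in bone marrow. Its bone marrow values were all above the others, and it was lower in lung (-0.99 ± 0.16, adjusted p = 0.00143) and in blood (-0.89 ± 0.16, adjusted p = 0.00499) than in bone marrow, the blood call being lost without blood replicates 1 and 2 and on FPKM (adjusted p from 0.000388 to 0.0852 over the alternatives). Rpia, which encodes ribose phosphate isomerase, had 19.3, 15.9 and 13.4 CPM in lung, 20.2, 19.2 and 19.1 CPM in blood, and 23.5, 23.3 and 25 CPM in bone marrow. The lung and blood values were all below those of bone marrow. It was lower in lung than in bone marrow (-0.56 ± 0.15, adjusted p = 0.0163) but not on FPKM or with upper-quartile scaling, where the adjusted p reached 0.31 from a lowest value of 0.0071.

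The 9 genes that passed in no comparison in the fit without a block were Slc2a1, Pfkl, Pfkm, Aldoc, Ldhb, Pdk1, Pygb, Pgls and Taldo1. Of these, 5 (Pfkm, Aldoc, Ldhb, Pdk1 and Pygb) were below a mean of 5 FPKM in every tissue. Aldoc, which encodes the brain-type aldolase, had 4.01, 4.23 and 0.497 CPM in lung, 1.03, 1.23 and 0.997 CPM in blood, and 1.12, 0.823 and 1.38 CPM in bone marrow. Its higher values were confined to lung replicates 1 and 2, the libraries with 1870 and 1600 CPM of fibroblast and smooth muscle transcripts against 203 CPM in lung replicate 3. Pfkm and Pygb were also lower in lung replicate 3 than in the other lung libraries, and the part of those transcripts was not tested. Without lung replicate 3, Aldoc was called higher in lung than in blood (1.89, adjusted p = 0.00541) and than in bone marrow (1.85, adjusted p = 0.00431), the lowest of ranges that reached 0.467 and 0.372. Aldoa took at least 99.4% of the aldolase FPKM in every library.

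The promoters of these genes were searched for ACGTG and GCGTG, the core letters bound by hypoxia-inducible factors, on both strands of the 250 bases before each RefSeq start. RefSeq starts were matched for 34 of the 35 genes, Slc2a3 being the exception, and gave 49 promoters. Of these, 37 (75.5%) held a match, against 53.7% of the 13504 promoters of the genes tested and 38.6% of all 32851 promoters. The median share of G and C was 60%, 59.2% and 52.4% in the same sets. The RefSeq promoters of Gpi1, Gys1, Gbe1, Tpi1 and Rpe held none. Whether matches go with the calls of the genes was not tested. The palindrome CACGTG, which contains ACGTG on both strands, was in 3 member promoters (6.12%), against 8.09% of those of tested genes. These are matches of letters in a window and say nothing of binding.

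Other genes of these pathways were called in both directions, as were genes in general. Of 21 tested genes from a list of other glycolysis and glucose transport genes, 6 were lower and 4 higher in lung than in bone marrow, 3 lower and 4 higher in blood than in bone marrow, and 2 lower and 1 higher in lung than in blood. Of all genes tested, 22.6% were lower and 15.6% higher in the first comparison. The shares were 13.1% and 8.34% in the next, and 15.7% and 13.2% in the last. Whether this or the other lists below differed from these shares was not tested. Adpgk, which encodes an ADP-dependent glucokinase, averaged 35.3 ± 7.20 CPM in lung, 38.2 ± 5.68 CPM in blood and 1774 ± 294 CPM in bone marrow. Lung and blood overlapped at a small fraction of the marrow level, with -5.65 ± 0.27 (adjusted p = 9.13e-06) in lung and -5.54 ± 0.27 (adjusted p = 1.5e-05) in blood against it. Slc2a6, which encodes the transporter GLUT6, had 601, 707 and 1204 CPM in lung, 253, 257 and 357 CPM in blood, and 277, 315 and 394 CPM in bone marrow. All lung libraries were above all others, with 1.54 ± 0.30 (adjusted p = 0.00564) against blood, a call lost without blood replicate 1 or 2 (adjusted p up to 0.0532, in a range from 2.15e-05). Slc2a9, a urate and hexose transporter, was lower in lung than in bone marrow (-1.46 ± 0.30, adjusted p = 0.00516), except on log2(FPKM + 0.1), where the adjusted p was 0.0536 in a range from 6.74e-06. Bpgm, which makes 2,3-bisphosphoglycerate in red cells, had 5.59, 5.24 and 2.06 CPM in lung, 54.1, 46.4 and 8.40 CPM in blood, and 87.3, 100.1 and 10.6 CPM in bone marrow. It was lower in lung than in bone marrow (-3.94 ± 0.95, adjusted p = 0.0116, from 4.91e-06 to 0.0915 over the alternatives, highest with limma-voom). Beside it, the sum of the erythroid genes was 432, 344 and 33.3 CPM in lung, 8810, 6120 and 822 CPM in blood and 8620, 9430 and 1720 CPM in bone marrow. The part of red cell transcripts in it was not tested.

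Of 17 tested genes of pyruvate and lactate handling outside the 35, 3 were lower and 1 higher in lung than in bone marrow, 5 were lower in blood than in bone marrow, and 3 were higher in lung than in blood. Beside them, 38.2%, 21.4% and 28.9% of all genes tested were called in these comparisons, in the same order. Slc16a3, which encodes the lactate exporter MCT4, had 1752, 1975 and 3131 CPM in lung, 509, 485 and 552 CPM in blood, and 1124, 828 and 1458 CPM in bone marrow. Lung was highest and blood lowest, without overlap between any pair of tissues. It was higher in lung than in blood by 2.15 ± 0.30 (adjusted p = 0.00141), a call kept under every alternative tried. In lung against bone marrow it was 1.01 ± 0.29 (adjusted p = 0.0233), a call lost without blood replicate 1 or 2 or bone marrow replicate 1 or 2, and in the fit of only those 6 libraries (adjusted p up to 0.12, from 0.000345). In blood against bone marrow it was -1.14 ± 0.29 (adjusted p = 0.0226), a call lost under 7 alternatives, those without any 1 blood library among them, and without bone marrow replicate 1 or 3 (up to 0.193, from 0.00482). Pdk3, a further pyruvate dehydrogenase kinase, averaged 6.48 ± 1.03 CPM in lung, 4.97 ± 0.799 CPM in blood and 31.2 ± 3.48 CPM in bone marrow, and Mpc2, a subunit of the mitochondrial pyruvate carrier, averaged 18.5 ± 3.75 CPM in lung, 15.6 ± 1.94 CPM in blood and 56.8 ± 10.8 CPM in bone marrow. Both were lower than in bone marrow, Pdk3 at -2.27 ± 0.19 (adjusted p = 5.02e-05) in lung and -2.65 ± 0.19 (adjusted p = 5.48e-05) in blood, and Mpc2 at -1.62 ± 0.20 (adjusted p = 0.00032) in lung and -1.86 ± 0.20 (adjusted p = 0.000326) in blood. Dld, which encodes the dehydrogenase subunit shared by pyruvate dehydrogenase, was higher in lung than in blood (0.97 ± 0.13, adjusted p = 0.00141), and Pdha1, which encodes a catalytic subunit of that complex, was lower in lung than in bone marrow (-0.92 ± 0.11, adjusted p = 0.000289).

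Of 24 tested genes of glycogen turnover outside the 35, 10 were lower and 1 higher in lung than in bone marrow, 5 were lower in blood than in bone marrow, and 8 were lower and 2 higher in lung than in blood. The shares of all genes called were again 38.2%, 21.4% and 28.9% in these comparisons. Pgm2, a phosphoglucomutase, was lower in lung than in bone marrow (-1.18 ± 0.18, adjusted p = 0.00098). Ppp1r3b and Ppp1r3d encode subunits that target protein phosphatase 1 to glycogen. Ppp1r3b averaged 166 ± 51.7 CPM in lung, 135 ± 48.3 CPM in blood and 350.1 ± 62 CPM in bone marrow. Ppp1r3d averaged 64.3 ± 17.4 CPM in lung, 135 ± 28.8 CPM in blood and 133 ± 6.82 CPM in bone marrow. Ppp1r3b was lower in blood than in bone marrow (-1.38 ± 0.30, adjusted p = 0.0123) and Ppp1r3d was lower in lung than in blood (-1.07 ± 0.22, adjusted p = 0.00771). The Ppp1r3b call was lost without blood replicate 1 or 2 or bone marrow replicate 3 (adjusted p up to 0.14, from 0.000454), and the Ppp1r3d call without blood replicate 1 or 3 (up to 0.075, from 0.000179). Of 9 tested genes around the pentose phosphate pathway, 1 was lower and 1 higher in lung than in bone marrow, and 1 was lower in lung than in blood. The same shares of all genes (38.2% and 28.9%) stand beside these counts. H6pd, the glucose 6-phosphate dehydrogenase of the endoplasmic reticulum, had 25.7, 29.3 and 22.8 CPM in lung, 56.7, 73.1 and 97.3 CPM in blood, and 43.6, 55.2 and 50.5 CPM in bone marrow, with lung lowest and blood highest, and was lower in lung than in blood (-1.55 ± 0.21, adjusted p = 0.00114).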

How the data were processed

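Neutrophil polyA RNA-seq reads were quantified by the authors, and Bowtie2, STAR, StringTie 2.1.3b, RSEM, DESeq2 and build mm10 are named in the submitters' processing notes, with roles not given in the sources used here. Estimated counts and FPKM are deposited in a table of the whole series for 36780 RefSeq transcripts, per the file headers, while for lung and blood the authors also deposited expected counts and TPM from RSEM over 55450 GENCODE genes. The series table was used because it alone covers 3 tissues, in place of the RSEM counts first planned for. Estimated counts and FPKM were summed per gene, and library totals of 42045548 to 56796219 leave a floor of 3 reads at 0.0528 to 0.0714 CPM, covering counting error only.

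Genes passing filterByExpr (13510) were fitted over all 9 libraries with edgeR 4.0.16 (TMM, robust quasi-likelihood, group means, common biological coefficient of variation 0.448) in R 4.3.3, with p-values adjusted by Benjamini-Hochberg and called under 0.05. The SE is the absolute log2 fold change over the square root of F. Alternatives used DESeq2 1.42.0, limma 3.58.1 (voom, and log2(FPKM + 1) or log2(FPKM + 0.1)), other scalings and filters, a replicate block, only the 6 libraries compared, RSEM counts, and each library left out. The fit on transcript starts was added after seeing the data. The fit was also run on counts simulated from its own means and dispersions. These held no batch or other-cell differences, so they cannot show how the calls hold against such differences. Nothing here rests on that run. No label says that a replicate number marks a shared animal or day. Same-numbered libraries deviated together from their tissue means at correlations of 0.127, 0.409 and 0.518 in lung and blood, 0.153, 0.174 and 0.186 in lung and bone marrow, and 0.049, 0.149 and 0.382 in blood and bone marrow, and differently numbered ones at -0.504 to 0.453, so values with the block are given where they change a call. Isozyme shares used an exact two-sided permutation test.

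The 35 genes and the other lists were chosen with earlier results of these data known. All 35 were named. From each other list, up to 4 called genes per comparison with the largest absolute fold change could be named, and 1 of these is not reported here. P-values measure the spread between libraries, which the labels call biological replicates.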

Additional observations from a re-analysis of the deposited data

How the results depend on the processing

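Counts of the 35 genes called outside 1.5 times the reported count were, in blood against bone marrow (20), 13 with no low-count filter, and in lung against blood (8), 5 with DESeq2 size factors, 15 on log2(FPKM + 1), 15 on log2(FPKM + 0.1), 4 with no filter and 5 with only the 6 libraries compared. Leaving out single libraries gave 7 to 24, 2 to 14 and 23 to 28 called members, and 1236 to 3965, 1922 to 5852 and 3258 to 6984 called genes, in blood against bone marrow, lung against blood and lung against bone marrow, beside 2892, 3900 and 5158 genes with all libraries. Pgls in lung against bone marrow, not called, turned to 0.05 with upper-quartile scaling. The cause of these changes was not tested.

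The share of higher calls among all called genes was 39%, 45.6% and 40.9% in the same order. It was 52.6%, 55.9% and 59.3% with upper-quartile scaling, which moved the median of all genes to 0.109, 0.214 and 0.382, 56.9% and 52% with DESeq2 size factors in the comparisons with lung, and 67.3%, 32.3% and 48.6% on log2(FPKM + 1). Of 1443 alternative fold changes of members, 1273 kept direction and side of the threshold, 111 lost the call, 58 gained one and 1 turned.

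With the replicate number as a block, 24, 11 and 29 members and 3990, 4751 and 5973 genes were called. Beside the members named above with the block, Pfkfb3 was then lower in blood than in bone marrow (-0.58, adjusted p = 0.0287, in a range from 0.0102 to 0.489), and none of the 35 lost a call.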

Other observations

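Genes of glucose 6-phosphate transport into the endoplasmic reticulum and of nearby steps were also named by the rule for the other lists. Slc37a2, which encodes a sugar phosphate exchanger, was lower in lung than in blood (-1.43 ± 0.30, adjusted p = 0.00836), a call lost only without blood replicate 3 (adjusted p = 0.0693, in a range from 0.000512). Slc37a4, which encodes the glucose 6-phosphate transporter, was lower in lung than in blood (-0.93 ± 0.24, adjusted p = 0.018), a call lost on RSEM counts, with upper-quartile scaling and without lung replicate 2 (up to 0.0662, from 0.0034). Pfkfb2, a PFKFB gene outside the 35, was higher in blood than in bone marrow (1.00 ± 0.28, adjusted p = 0.034), and lost its call under 7 of 19 alternatives (up to 0.0751 without blood replicate 2, from 0.00431).

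The table used here and the RSEM files gave Hk1 different ratios of reads within lung: 2.03 and 2.04 in replicates 1 and 2 but 1.51 in replicate 3, with 1.54 to 1.58 in blood.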
